A study of Mus musculus with 12 samples.

Results

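Anti-PD-1 antibody (aPD1) was compared with isotype control antibody in tumors of C57BL/6J (B6) mice, the inbred host in a series otherwise made of F1 crosses between B6 and Collaborative Cross (CC) strains. The cells were those whose deposited annotation named the host as B6, 11452 of 93126 cells, and they came from 6 of 48 tumors. All 6 animals were female and aged 8 to 12 weeks when cells of MC38, a colon carcinoma line that arose in B6 mice, were placed under the skin. Each received 1 dose of 200 µg of aPD1 or isotype antibody, and the tumor was taken 48 h later. The isotype group held 3 tumors with 2986 cells in pool 6, 345 in pool 7 and 2192 in pool 8, and the aPD1 group held 3 tumors with 2690, 1466 and 1773 cells in the same pools. Each tumor was 1 animal. A pool was 1 sequencing library of 4 hashtagged specimens, so each aPD1 tumor was set against the isotype tumor that had shared its library. The isotype tumors carried hashtag 301 (pools 6 and 7) or 303 (pool 8) and the aPD1 tumors hashtag 302 or 304, so hashtag and treatment cannot be told apart.

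PD-1 is an inhibitory receptor that activated and exhausted T cells carry, and PD-L1, its main ligand, is displayed by tumor cells, macrophages and dendritic cells, above all after exposure to interferon gamma. Antibodies that block PD-1 release T cells from this brake, and T cell interferon gamma then drives macrophages to produce chemokines such as CXCL9 and antigen-presenting molecules. MC38 is widely used to study this response because it carries many mutations and is infiltrated by T cells.

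Transcripts were counted with unique molecular identifiers (UMIs), each marking 1 captured transcript, and levels are given as CPM, the UMIs of a gene per 1000000 UMIs of the cells summed. Tumors held 1933469 to 11694077 UMIs, with a median of 1921.5 to 7007 per cell. The lowest total belonged to the isotype tumor of pool 7, which also gave the fewest T and NK cells (35). Since viable cells had been sorted to a fixed excess of CD45-positive leukocytes before sequencing, shares describe the sorted cells and not the whole tumor. The 7 MC38 markers summed to 4.14 to 19.3 CPM over all cells of a tumor. Erythroid markers summed to 198 CPM in the isotype tumor of pool 8 and to at most 9.31 CPM in the other 5 tumors. Among the barcodes of pools 6 to 8, 167 of 19759 occurred in more than 1 of the 3 libraries. Gm10260, a ribosomal protein pseudogene picked after its values were seen, had 1.28 to 5.79 CPM in the 6 B6 tumors. It had 338 to 933 CPM in the CC007 and CC036 F1 tumors of the same pools. Because of that choice, these values are no independent check of the host labels, and they do not bear on the treatment labels.

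The deposited clusters are numbered and were named here from marker genes. Monocyte and macrophage clusters, called macrophages below, held 8028 of the B6 cells, led by cluster 2 (2816 cells, leading genes Cxcl2 and Il1b), cluster 5 (1576 cells, leading genes C3 and Ccr2), cluster 26 (1377 cells, leading genes Cxcl13 and C1qc), cluster 4 (805 cells, leading genes Ace, Adgre4, Chil3 and Vcan) and cluster 21 (585 cells, leading genes Ifit3 and Rsad2). T and NK clusters (T/NK) held 1776 cells, of which cluster 7 had 508 (Lef1, Tcf7), cluster 3 had 411 (Cd8a, Pdcd1), cluster 24 had 290 (Ncr1, Klrb1c) and cluster 8 had 189 (Foxp3, Ikzf2). Dendritic cells of 4 clusters made up 1159 cells.

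Macrophages were a larger share of the cells in the aPD1 tumors of pools 6 and 8, and T/NK and dendritic cells were a smaller share in all 3 pools. No share passed a test. Macrophages made up 67.2%, 75.7% and 61.2% of cells in the isotype tumors of pools 6, 7 and 8, and 73.9%, 75.2% and 74.9% in the aPD1 tumors. The aPD1 tumors were close together (SD 0.715), and the isotype tumors lay on both sides of them (SD 7.25). T/NK cells made up 15.003%, 10.1% and 25.5% in the isotype tumors and 12.5%, 9.41% and 14.7% in the aPD1 tumors. The difference in T/NK share was −4.72 ± 5.41 percentage points (SD, n = 3 pairs), and it was −10.9 points in pool 8, −2.55 in pool 6 and −0.73 in pool 7. Dendritic cells were at 15.003%, 9.86% and 8.12% in the isotype tumors and 10.9%, 8.73% and 4.40% in the aPD1 tumors, a difference of −2.99 ± 1.62 points (SD, n = 3 pairs). An exact sign-flip test over 3 pairs cannot give a p-value below 0.25, which both the T/NK and the dendritic share reached, and an exact permutation of 3 against 3 tumors gave 0.4 and 0.5.

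**Figure D1:**
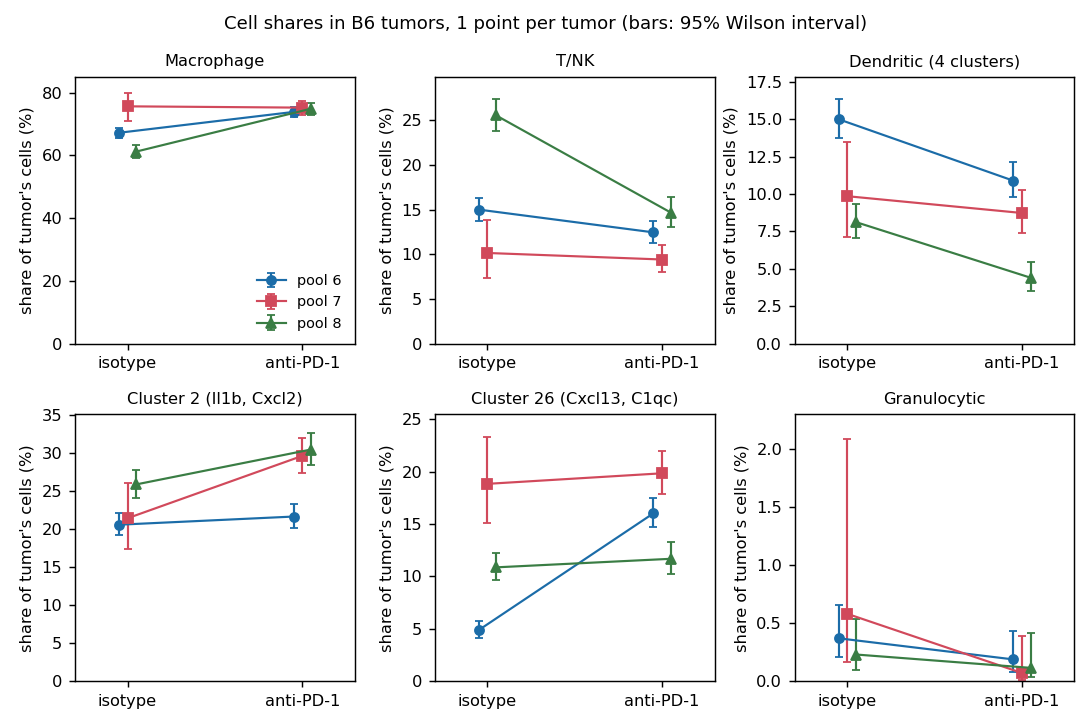
Share of each tumor's cells (%, y axis) in 6 groups of cells for isotype and aPD1 tumors (x axis). Each point is 1 tumor, bars are its 95% Wilson interval (counting error only), and lines join the tumors of 1 pool. T/NK, dendritic and granulocytic shares are lower with aPD1 in each of the 3 pools, while the groups overlap in all but the granulocytic panel.

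Of the 27 clusters, 3 had a higher share with aPD1 in all 3 pools (11.1%) and 3 a lower one (11.1%). Clusters 2, 26 and 20 were higher. Cluster 2, the Il1b-expressing macrophages, was at 20.6%, 21.4% and 25.9% with isotype and 21.7%, 29.7% and 30.5% with aPD1. Cluster 26, macrophages with complement C1q genes among the leading ones, was at 4.86%, 18.8% and 10.9% with isotype and 16.02%, 19.85% and 11.7% with aPD1, so nearly all of its difference came from pool 6. Cluster 20, which stayed unnamed and was led by Kirrel3, Tenm3 and Rhox5, was at 1.74%, 2.32% and 4.52% with isotype and 2.01%, 3.89% and 5.70% with aPD1. As a share of macrophages alone, cluster 2 changed by −1.30, 11.1 and −1.59 points in pools 6, 7 and 8. Cluster 26 changed by 14.5, 1.48 and −2.15 points on that scale. Clusters 16, 12 and 10 were lower as a share of all cells. Cluster 16, granulocytic cells led by S100a8 and S100a9, was the only cluster whose groups did not overlap (1 of 27, 3.7%), with 0.368%, 0.580% and 0.228% with isotype and 0.186%, 0.068% and 0.113% with aPD1. That cluster held 26 cells in all. Clusters 3 and 13, both with Cd8a-expressing T cells, together held 2.51%, 4.64% and 10.5% with isotype and 3.197%, 3.55% and 5.02% with aPD1, higher in 1 pool and lower in the other 2. In a fit across the 24 clusters of at least 20 cells, edgeR's quasi-likelihood test with pool as a block called none, and none had an unadjusted p under 0.05. The smallest was 0.118, for cluster 16 (adjusted p = 0.847).

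The change in B6 tumors was also set against that in the 21 aPD1 and isotype pairs of the other 7 hosts. The macrophage share changed by 6.64 points in B6 and 4.36 ± 13.5 points in the others (SD, n = 21 pairs), and an exact permutation over pairs gave p = 0.776. For T/NK cells the changes were −4.72 and −3.48 ± 13.1 points (exact permutation p = 0.876). For dendritic cells they were −2.99 and −0.16 ± 4.38 points (exact permutation p = 0.279). These permutations treated pairs as exchangeable, although pairs are grouped by host and all B6 pairs are of the same host. They therefore do not measure the spread between hosts. Single pairs of other hosts ranged from −40.7 to 17.5 points for T/NK cells, and the 3 B6 pairs lay inside that range. Some of those tumors were small, the smallest with 53 cells, and the part of such tumors in the range was not tested.

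Within macrophages, no gene passed an adjusted p of 0.05 (0 of 10953, edgeR's quasi-likelihood test on counts summed per tumor, pool as a block), and 298 had an unadjusted p under 0.05, 114 higher (1.04%) and 184 lower (1.68%) with aPD1. DESeq2 also called none. The genes below are therefore values and not calls. Among the genes with the smallest p that went the same way in all 3 pools, higher with aPD1 were Nos2, which encodes the inducible nitric oxide synthase of activated macrophages, Acod1, which makes itaconate, Plau, the urokinase protease, and Hdac9, Mir99ahg, Def8, Sectm1a, Psd3, Rad51b and Marcksl1. Lower were Thbs1, encoding thrombospondin, Cd80, a costimulatory ligand of T cells, Areg, an epidermal growth factor receptor ligand, Nr4a2, an early response transcription factor, and Dcstamp, Dmkn, Klf9, Wfdc17 and Peli2. All adjusted p-values were 1.00. Nos2 was at 9.08, 7.58 and 49.6 CPM in the isotype tumors and 42.9, 28.2 and 60.7 CPM in the aPD1 tumors, a log2 fold change of 1.21 ± 0.35 (SE). The isotype tumor of pool 8 was above both of the other aPD1 tumors, so the groups overlapped, although each pool was higher with aPD1. Thbs1 was at 490, 279 and 537 CPM with isotype and 292, 74.3 and 380 CPM with aPD1 (log2 fold change −1.05 ± 0.23). Cd80 was at 87.2, 82.8 and 90.9 CPM with isotype and 50.3, 40.3 and 77.5 CPM with aPD1, and here the groups did not overlap, as for 1.39% of all macrophage genes on the lower side. On the higher side, where 2.57% of genes did not overlap, these were Mir99ahg, Hdac9, Def8, Sectm1a, Psd3, Rad51b and Marcksl1, with log2 fold changes of 0.36 to 1.08.

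Interferon genes were divided into those induced by interferon gamma, which T and NK cells release, and those of the type I antiviral response. Of 29 interferon gamma induced genes measured, 25 were higher with aPD1, 6 of them in all 3 pools (the background was 10.4%), and 4 had an unadjusted p under 0.05, all higher (the background was 1.04%). The median log2 fold change was 0.19, or 0.37 without pool 7, against −0.0044 over all genes. Those 4 were Nos2, Cxcl9, Gbp2 and Iigp1. In the other 7 hosts the median of this list ranged from −0.61 to 0.83 and was above 0 in 4. Of the 13 measured genes of a second list, mouse counterparts of an 18-gene interferon gamma profile, 8 were higher and 5 lower, 1 had such a p, and the median was 0.08. Cxcl9, the chemokine that recruits CXCR3-positive T cells, was at 602, 1688 and 1001 CPM with isotype and 1128, 1850 and 1309 CPM with aPD1, a log2 fold change of 0.45 ± 0.15 (unadjusted p = 0.019, adjusted p = 1.00). It was higher in each pool, and the difference was small beside the spread of the isotype tumors. Summed over the list, levels were higher in pools 6 and 8 (4474 to 5566 and 5031 to 6940 CPM) and lower in pool 7 (6981 to 6306 CPM). Cd274, which encodes PD-L1, was at 139, 218 and 239 CPM with isotype and 200, 167 and 358 CPM with aPD1, again higher in pools 6 and 8 alone (log2 fold change 0.23 ± 0.18). None of the 12 MHC class II genes and none of the 15 class I genes had an unadjusted p under 0.05, and H2-Ab1, a class II chain, differed by 0.10 ± 0.13.

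All 18 type I interferon-stimulated genes measured were lower with aPD1, 4 of them with an unadjusted p under 0.05 (the background was 1.68%), and the median log2 fold change was −0.39. The 4 were Ifit3, Ifit3b, Oasl1 and Cmpk2, antiviral response genes. Oasl1 was at 73.8, 73.3 and 49.1 CPM with isotype and 32.3, 45.8 and 43.2 CPM with aPD1. The list as a whole did not move one way in each pool. Its summed level went from 5735 to 4165 CPM in pool 6 and from 4079 to 2400 CPM in pool 7, but from 2481 to 3082 CPM in pool 8. Without pool 7, the pool with the smallest tumor, the median was −0.15. In the other hosts it ranged from −0.57 to 0.39 and was above 0 in 3 of 7. Cluster 21, whose leading genes are of this list, moved with it, making up 8.31%, 8.12% and 3.38% of cells with isotype and 3.35%, 4.50% and 4.46% with aPD1. Whether the difference in the list came from the number of such cells was not tested.

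**Figure D2:**
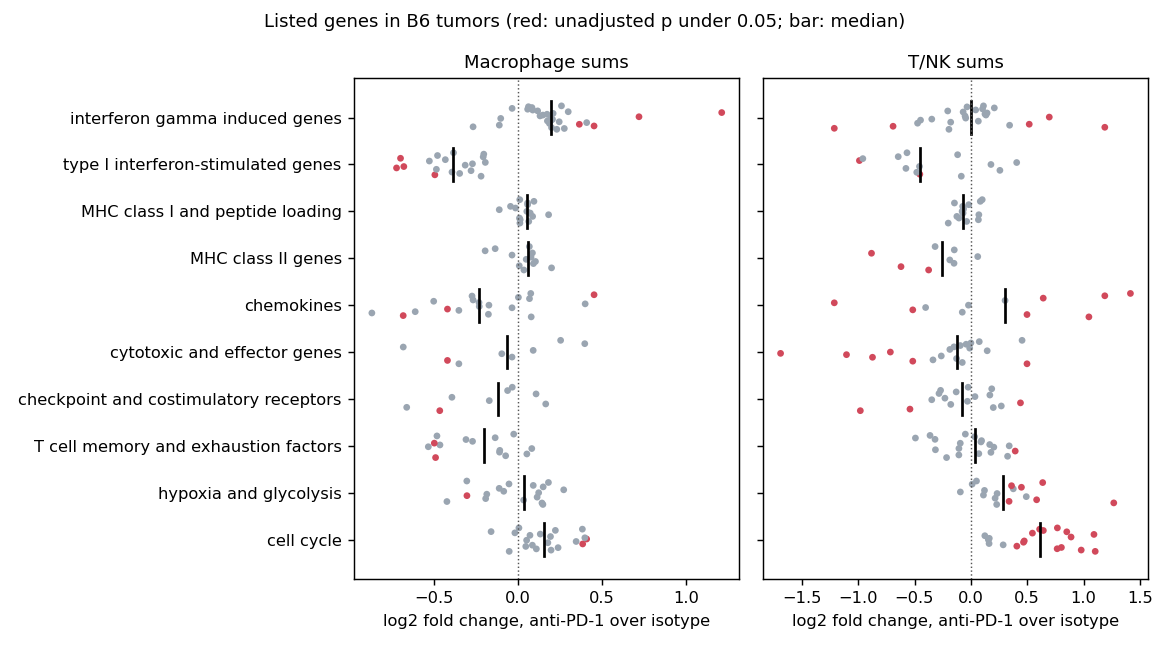
Log2 fold change of aPD1 over isotype (x axis) for each measured gene of 10 gene lists (rows) in macrophage sums and T/NK sums of the B6 tumors. Each point is 1 gene, red points have an unadjusted p under 0.05 and black bars are list medians. Type I interferon-stimulated genes in macrophages sit left of 0 with a median of −0.39, and cell cycle genes in T/NK cells sit right of 0 with a median of 0.61.

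The lipid and Spp1 macrophage list, a program of tumor macrophages, had no gene with an unadjusted p under 0.05 among 16, and a median of −0.06. Spp1 itself was at 592, 486 and 433 CPM with isotype and 457, 887 and 466 CPM with aPD1 (log2 fold change 0.17 ± 0.22). Complement genes (0 of 11) and monocyte and macrophage identity markers (0 of 8) also held no gene with an unadjusted p under 0.05, and their medians were 0.09 and 0.01. Of 19 chemokines, Cxcl9 was higher and Ccl17 and Ccl4, which draw T cells and monocytes, were lower at an unadjusted p under 0.05, where 1.04% of all macrophage genes were higher and 1.68% lower. Cell cycle genes were higher in 17 of 20, 2 of them with such a p, with a median of 0.15 that was 0.02 without pool 7, and oxidative phosphorylation genes had none of 16. Mrc1, the mannose receptor, was the 1 gene of 13 of the alternative activation list below that p, at 88.3, 99.8 and 172 CPM with isotype and 183, 116 and 189 CPM with aPD1.

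In T/NK cells 4 of 7906 genes passed an adjusted p of 0.05 (0.0506%), and 407 had an unadjusted p under 0.05, 230 higher (2.91%) and 177 lower (2.24%). Ifitm1 and Pid1 fell, and Mt3 and Hist2h2bb rose. Ifitm1 (chromosome 7, 140967221 to 140969825, GRCm38) encodes an interferon-induced transmembrane protein that restricts virus entry. It was at 201, 509 and 241 CPM with isotype and 87.3, 228 and 133 CPM with aPD1. Each aPD1 tumor had less than its pool's isotype tumor, but the aPD1 tumor of pool 7 was as high as the isotype tumors of the other pools. The log2 fold change was −1.07 ± 0.17 (adjusted p = 0.019). Pid1 (chromosome 1, 84036296 to 84364180), a phosphotyrosine-binding adaptor best known in fat and muscle cells, was at 88.3, 255 and 98.9 CPM with isotype and 41.3, 106 and 41.6 CPM with aPD1, with a log2 fold change of −1.21 ± 0.19 (adjusted p = 0.019).

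Mt3, a metallothionein that binds zinc and copper, was at 28.1, 14.98 and 13.6 CPM with isotype and 111, 13.02 and 41.6 CPM with aPD1, with a log2 fold change of 1.72 ± 0.30 (adjusted p = 0.029). Hist2h2bb, a histone H2B gene of the replication-dependent family, was at 18.4, 14.98 and 5.46 CPM with isotype and 78.9, 13.02 and 33.1 CPM with aPD1, with a log2 fold change of 2.10 ± 0.37 (adjusted p = 0.029). Both were higher in pools 6 and 8 only, and in pool 7 each isotype value rested on 2 UMIs. None of the 4 genes was called without the block for pool, with library size scaling, with a spread shared by all tumors of the series, or without pool 6 or pool 8, and DESeq2 called none. The low-expressed histone gene belongs to a family of near-identical copies, so its level is uncertain.

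Just outside the threshold, Phgdh, which encodes the first enzyme of serine synthesis, was at 57.2, 22.5 and 31.4 CPM with isotype and 115, 65.1 and 79.6 CPM with aPD1 (log2 fold change 1.16 ± 0.22, adjusted p = 0.050). The groups did not overlap, as for 2.5% of T/NK genes on the higher side and 2.11% on the lower. Gzma, granzyme A of cytotoxic T and NK cells, was at 702, 1678 and 459 CPM with isotype and 347, 683 and 374 CPM with aPD1 (log2 fold change −0.87 ± 0.17, adjusted p = 0.065). The other named genes were Rnf168, Tipin, H2afx, Rad54l, Kif13b, Birc5, Selenoh, Tpi1 and Nusap1 on the higher side and Tgfbi, Lyz2, Cxcl10, Fn1, Klra2 and Slc39a1 on the lower side, with adjusted p-values of 0.073 to 0.572. On the higher side, Rnf168, H2afx, Rad54l and Tipin act in replication and DNA repair and Birc5 and Nusap1 in mitosis. On the lower side, Lyz2, Tgfbi and Fn1 are macrophage genes.

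Macrophage transcripts were present in the T/NK sums and differed between the groups. The 8 macrophage markers summed to 591, 4008 and 570 CPM with isotype and 497, 560 and 437 CPM with aPD1, highest in the isotype tumor of pool 7, with its 35 cells. Lyz2 alone was at 3214 CPM in that tumor and at 154 to 326 CPM in the other 5. Cluster 12, which holds T cell and macrophage markers side by side, carried most of it in 5 of the 6 tumors, the aPD1 tumor of pool 8 being the exception. Without that cluster, the markers summed to 99.2, 79.0 and 133 CPM with isotype and 42.0, 112 and 360 CPM with aPD1, and 1 gene stayed called, Ifitm1 (log2 fold change −1.29 ± 0.18, adjusted p = 0.026). How far macrophage RNA adds to Pid1 and the lower genes was not tested.

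All 19 cell cycle genes measured in T/NK cells were higher with aPD1, 14 had an unadjusted p under 0.05 (the background was 2.91%), 9 were higher in all 3 pools (background 11.3%) and the median log2 fold change was 0.61 against 0.0024 over all genes. None passed the adjusted threshold, the smallest adjusted p being 0.389. Mki67, the proliferation marker Ki-67, was at 151, 37.5 and 41.6 CPM with isotype and 192, 36.9 and 145 CPM with aPD1. Top2a, a topoisomerase of dividing cells, was at 241, 82.4 and 71.6 CPM with isotype and 289, 86.8 and 250 CPM with aPD1. Pool 8 carried the difference in both, and pool 7 hardly any.

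Summed over the cell cycle list, the T/NK level went from 3637 to 4384 CPM in pool 6, from 1978 to 2139 CPM in pool 7 and from 1506 to 3049 CPM in pool 8. The groups overlapped, because the isotype tumor of pool 6 was above both aPD1 tumors of the other pools. The makeup of the T/NK cells moved too. The list was summed within clusters 1, 3, 7, 8, 13 and 24, and of these the T cells of cluster 1 had the highest level. In pool 8 cluster 1 made up 7 of 560 T/NK cells of the isotype tumor and 20 of 260 of the aPD1 tumor. In the other pools it was a smaller part with aPD1. Within cluster 1 the level was higher with aPD1 in each pool. It went from 7599 to 8582, from 7476 to 14854 and from 7455 to 7623 CPM. In pool 7 this rested on 2 isotype cells and 1 aPD1 cell. Within clusters 3, 7 and 13 the pools differed in direction. Cluster 3 went from 3856 to 3265 CPM in pool 6, from 1390 to 1878 CPM in pool 7 and from 1883 to 2238 CPM in pool 8. Cluster 7 went from 2259 to 2280, from 3027 to 1493 and from 1148 to 2229 CPM. Cluster 8 was higher with aPD1 in pools 6 (4476 to 6334 CPM) and 8 (1481 to 4064 CPM) and had 1 isotype cell in pool 7. In pool 8, 1 of its 12 aPD1 cells held 30288 UMIs in all, with Cd8a and without Foxp3 UMIs, and the part of that cell in the sum was not tested. Cluster 24 was higher in pools 6 (3525 to 4082 CPM) and 8 (1308 to 1510 CPM) and also had 1 isotype cell in pool 7. Cluster 13, with few cells in most tumors, was higher in pools 6 and 8 and lower in pool 7 (1139 to 820 CPM). In the other hosts the median of the list ranged from −0.23 to 0.56 and was above 0 in 6 of 7.

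**Figure D3:**
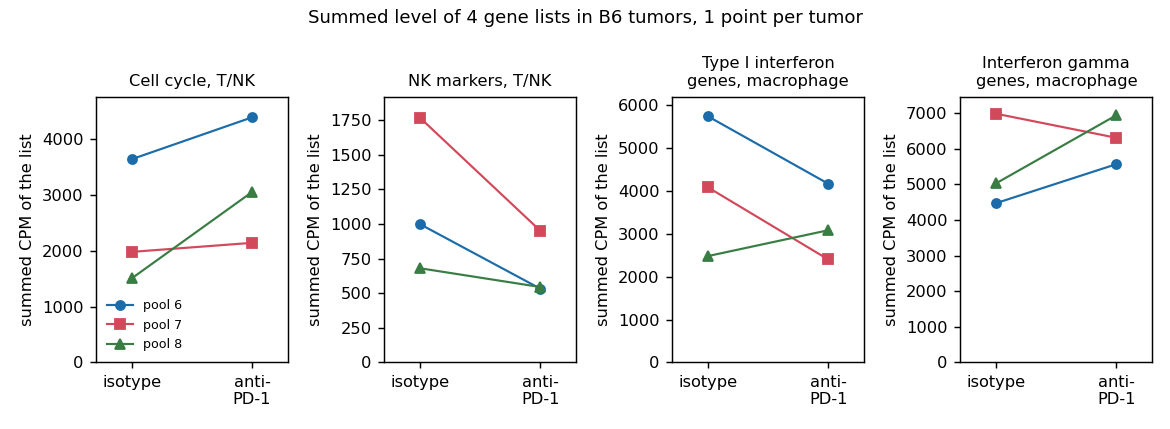
Summed level of 4 gene lists (CPM, y axis) in the 3 isotype and the 3 aPD1 tumors of B6 hosts (x axis), with lines joining the tumors of 1 pool. The T/NK cell cycle sum is higher and the NK marker sum lower with aPD1 in each pool. In pool 7 the lower NK marker sum is that of Gzma, and the other NK markers together are higher with aPD1. In macrophages the type I interferon sum is lower in pools 6 and 7 and higher in pool 8. The interferon gamma sum is higher in pools 6 and 8 and lower in pool 7.

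Of 16 hypoxia and glycolysis genes measured in T/NK cells, 15 were higher with aPD1, 6 with an unadjusted p under 0.05 (the background was 2.91%), and the median was 0.29. Bnip3, a hypoxia-induced mitophagy receptor, Tpi1, Pkm, Eno1 and Pgk1, enzymes of glycolysis, and Ero1l, an oxidase of the endoplasmic reticulum, were the 6. Tpi1 was at 151, 157 and 126 CPM with isotype and 286, 193 and 184 CPM with aPD1, without overlap of the groups. Cytotoxic and effector genes were lower in 14 of 19, 5 of them (Gzma, Gzmf, Ccl5, Gzmc and Gzmk) with an unadjusted p under 0.05 (the background was 2.24%), and Ccl3, a chemokine of activated T cells, was higher with such a p. Of the 5, Gzma and Gzmk were lower in all 3 pools, and Ccl5, Gzmc and Gzmf were higher with aPD1 in pool 7. The summed level of the list went from 12876 to 8886 CPM in pool 6 and from 14230 to 13225 CPM in pool 8, but from 17148 to 20982 CPM in pool 7. The 5 NK markers summed to 999, 1768 and 681 CPM with isotype and 533, 952 and 545 CPM with aPD1. The sum was lower in each pool and led by Gzma, which CD8 T cells also express. Gzma alone of the NK markers was lower in all 3 pools. In pool 7 it held 224 of their 236 UMIs with isotype and 315 of 439 with aPD1. The other NK markers together were higher with aPD1 in that pool. Cluster 24, the NK cells, which has Gzma and Gzmc among its leading genes, made up 22.8%, 2.86% and 14.8% of T/NK cells with isotype and 15.5%, 13.8% and 12.7% with aPD1, lower in pools 6 and 8 and higher in pool 7. Its part in these lists was not tested.

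Mean differences of Pdcd1, Cd8a and Ifng were small, and the pools differed in direction for Pdcd1 and Ifng. Pdcd1, the gene of PD-1, was at 105, 315 and 171 CPM in T/NK cells with isotype and 122, 208 and 265 CPM with aPD1 (log2 fold change 0.17 ± 0.19, unadjusted p = 0.396). Cd8a was at 212, 487 and 448 CPM with isotype and 245, 683 and 451 CPM with aPD1 (0.20 ± 0.16). Ifng was at 510, 1423 and 1038 CPM with isotype and 423, 1662 and 1464 CPM with aPD1 (0.14 ± 0.15, unadjusted p = 0.346). Of 12 genes of the PD-1 pathway and its partners in T cell activation, none had an unadjusted p under 0.05, and of 16 checkpoint and costimulatory receptors Ctla4 was higher and Btla and Cd160 were lower at that p, which 2.91% of all T/NK genes reached on the higher side and 2.24% on the lower. Of 12 regulatory T cell genes, Ctla4 and Ikzf2 had such a p, and Foxp3 differed by 0.22 ± 0.37. Interferon gamma induced genes of T/NK cells had a median of 0.0041 over 24, with Cxcl9, Gbp4 and Iigp1 higher and Cxcl10 and Gbp2 lower at that p. Cxcl9 there ranged from −0.50 to 2.97 on the log2 scale when 1 pool was left out. Of 19 memory and exhaustion factors Ikzf2 alone had such a p, and the median was 0.03.

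Summed over all cells of a tumor, 0 of 12247 genes passed, and 445 had an unadjusted p under 0.05, 167 higher (1.36%) and 278 lower (2.27%). DESeq2 called 3 genes, Kirrel3, Bgn and Gzma. Here fewer cells of a type and less RNA per cell cannot be told apart, and T/NK genes were lower with the T/NK share, 9 of 20 cytotoxic genes among those with an unadjusted p under 0.05. Tested against the mean change of the other 7 hosts, no gene differed in macrophages (0 of 13010, 340 with an unadjusted p under 0.05, 2.61%) or in T/NK cells (0 of 9736, 415 with such a p, 4.26%), and DESeq2 called none in either. Ifitm1 in T/NK cells had a mean log2 fold change of 0.70 in the other hosts, higher with aPD1 in 7 of 7, against −1.07 in B6 (unadjusted p = 0.0026 for the difference, adjusted p = 1.00). For Pid1 the values were 0.38, higher in 6 of 7, and −1.21 (unadjusted p = 0.00025, adjusted p = 0.605).

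Within single clusters, 35 of 66890 tests over 17 clusters passed an adjusted p of 0.05 within the cluster (0.0523%). A pair entered where both tumors had at least 10 cells of the cluster. Of the clusters with 3 pairs, 6 of 46654 tests passed (0.0129%), and of those with 2 pairs 29 of 20236 (0.143%), where the spread rests almost wholly on values shared over genes. The 6 genes from 3 pairs were Ccl2, Thbs1, AW112010 and Ly6i in cluster 4 (4 of 4280, 0.0935%), Nos2 in cluster 5 (1 of 7412, 0.0135%) and Gzma in cluster 3 (1 of 3122, 0.032%).

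In cluster 4, whose leading genes Ace, Adgre4, Chil3 and Vcan are genes of monocytes, Ccl2 and Thbs1 fell and AW112010 and Ly6i rose. Ccl2 (chromosome 11, 82035571 to 82037453), the main chemokine that draws monocytes out of the blood, was at 912, 1556 and 481 CPM with isotype and 298, 647 and 267 CPM with aPD1. The log2 fold change was −1.23 ± 0.18 (adjusted p = 0.0047), against −0.18 in all macrophages together. Thbs1 (chromosome 2, 118111876 to 118127133) was at 929, 1846 and 1466 CPM with isotype and 494, 370 and 741 CPM with aPD1, without overlap of the groups, with a log2 fold change of −1.33 ± 0.20 (adjusted p = 0.0073). AW112010, an interferon-induced RNA of myeloid cells, was at 208, 168 and 169 CPM with isotype and 378, 910 and 424 CPM with aPD1 (1.35 ± 0.22, adjusted p = 0.0099), and again the groups did not overlap. Ly6i, a monocyte surface protein of the Ly6 family, was at 124, 107 and 65.2 CPM with isotype and 222, 297 and 267 CPM with aPD1 (1.40 ± 0.25, adjusted p = 0.021), also without overlap. The Ly6 genes are close copies of each other, so the level of Ly6i is uncertain.

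These calls rested on 18 cells of the isotype tumor of pool 7, on 41 of its aPD1 tumor and on 120 to 351 in the other 4 tumors. In the isotype tumor of pool 7, 1 cell held 47 of 102 Ccl2 UMIs and 1 cell held 4 of 7 Ly6i UMIs, whereas in that of pool 6 the most in 1 cell was 38 of 566 Ccl2 UMIs. The gene's UMIs in the cell with most of them were then left out of each tumor. That cell's other UMIs stayed in the tumor's total, here and wherever a top cell is left out below. Ccl2 (log2 fold change −1.15, adjusted p = 0.031) and Thbs1 (−1.30, 0.013) passed in this way. AW112010 (1.25) and Ly6i (1.51) kept folds of about the same size and missed the threshold (adjusted p = 0.051 each). Without pool 8 none of the 4 passed, and without pool 6 Ccl2 did not (adjusted p = 0.092). Adjusted over all clusters together, Ly6i missed the threshold (adjusted p = 0.064). Without the block for pool the adjusted p-values of the 4 were 0.586 to 1.00. Cluster 4 itself was 11.8%, 5.22% and 5.98% of the cells with isotype and 4.46%, 2.80% and 8.12% with aPD1.

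**Figure D4:**
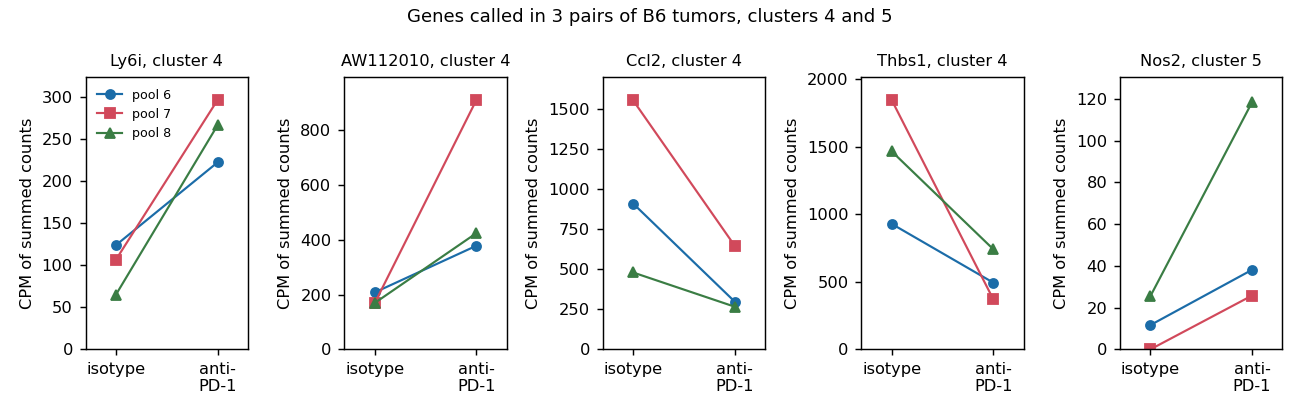
CPM of 5 genes (y axis, from counts summed per tumor within the cluster) in the 3 isotype and the 3 aPD1 tumors of B6 hosts (x axis), with lines joining the tumors of 1 pool. Ly6i, AW112010 and Nos2 are higher and Ccl2 and Thbs1 lower with aPD1 in each pool, and the groups overlap for Ccl2 alone.

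Nos2 (chromosome 11, 78920787 to 78960254) in cluster 5 was at 11.6, 0 and 25.4 CPM with isotype and 38.1, 25.8 and 118 CPM with aPD1, a log2 fold change of 2.10 ± 0.31 (adjusted p = 0.021), and the groups lay apart by a narrow gap. The counts behind these were 10, 0 and 15 UMIs with isotype and 36, 30 and 97 UMIs with aPD1, and the isotype tumor of pool 7 had 45 cells in the cluster. Leaving out the Nos2 UMIs of the top cell of each tumor kept the call (adjusted p = 0.027). Without pool 6 (adjusted p = 0.196) or pool 8 (0.177) it was lost. Gzma in cluster 3, the CD8 T cells, fell by 2.37 ± 0.51 on the log2 scale, but on 23, 11 and 9 UMIs with isotype and 4, 10 and 0 with aPD1. All 11 UMIs of the isotype tumor of pool 7 were in 1 cell. Without the Gzma UMIs of the top cell of each tumor the log2 fold change was −2.11 ± 0.92, near the first value, with an adjusted p of 0.893.

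In pairs of the other hosts with at least 10 cells, given as description, Nos2 in cluster 5 was higher with aPD1 in 16 of 20 (mean log2 ratio 1.47 ± 1.84, SD over pairs, against a mean of 2.42 in B6). In cluster 4, Ccl2 was higher in 10 and lower in 11 of 21 pairs, Thbs1 higher in 11 and lower in 10, AW112010 higher in 14 and Ly6i higher in 13. Gzma in cluster 3 was higher in 9 and lower in 6 of 15 pairs, with a mean log2 ratio of 0.38 against −2.61 in B6. The Thbs1 ratios of the 3 B6 pairs (−2.32 to −0.91) overlapped those of other hosts, whose lowest was −1.40.

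The clusters with 2 pairs gave 18 called genes in cluster 8 (0.964%), 8 in cluster 17 (0.236%) and 3 in cluster 9 (0.29%), and here single cells carried much of the count. Cluster 8 is led by Foxp3, the transcription factor of regulatory T cells, and had 51 and 48 cells in the isotype tumors of pools 6 and 8 and 67 and 12 in the aPD1 tumors. Ifng had 2 and 17 UMIs with isotype and 118 and 235 with aPD1, a log2 fold change of 4.90 ± 0.44. Of those, 100 of 118 and all 235 were in 1 cell each. Both cells had no Foxp3 UMI, had 5 Cd8a UMIs, and carried 107 and 89 UMIs of Ccl3 and 297 and 235 of Ccl4, the chemokines that were also called. Without the gene's UMIs in the top cell of each tumor the log2 fold change of Ifng was 0.17 ± 0.86 (adjusted p = 0.967), and of Ccl4 0.38 ± 0.45. Smyd3 (−2.36 ± 0.52, adjusted p = 0.0096) and Maml2 (−2.29 ± 0.55, adjusted p = 0.034) were the 2 genes of this cluster that passed in this way. With all cells and an adjustment over all clusters together, neither of the 2 genes passed (adjusted p = 0.052 and 0.108). For these only the UMIs of the gene itself in its own top cell were left out. In the aPD1 tumor of pool 8 they rested on 3 and 2 UMIs with all cells, in a sum that held the cell of 30288 UMIs. That cell stayed in the total.

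**Figure D5:**
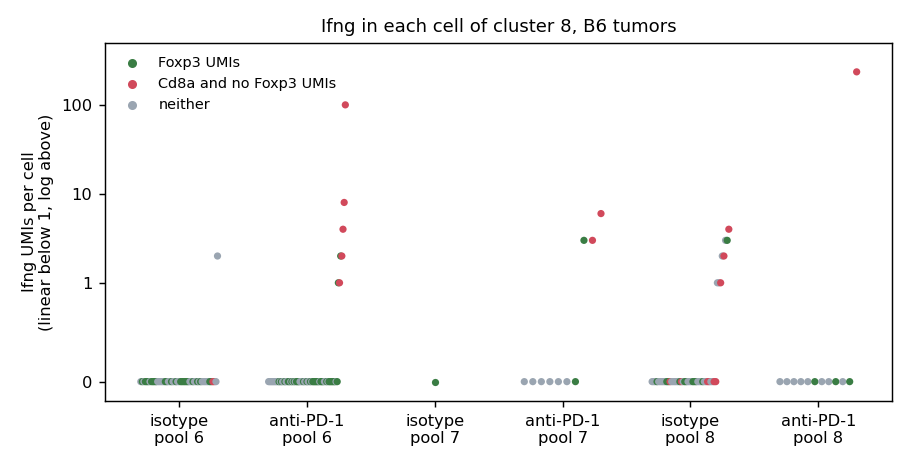
UMIs of Ifng per cell (y axis, linear below 1 and logarithmic above) in each cell of cluster 8 in the 6 B6 tumors (x axis), coloured by Foxp3 and Cd8a UMIs. Most cells are at 0, and 1 Cd8a-positive cell without Foxp3 holds 100 UMIs in the aPD1 tumor of pool 6 and another holds 235 in that of pool 8.

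For Retnla in cluster 9, macrophages led by Lyve1, 237 of 307 and 65 of 66 UMIs of the aPD1 tumors were in 1 cell each, and without the top cells the log2 fold change went from 4.92 to 3.63 ± 1.07 (adjusted p = 0.153). Pool 7, outside the test, went the other way, with 210 Retnla UMIs in 2 isotype cells and 0 in 5 aPD1 cells. Rgs1, a regulator of G protein signaling, was the gene of that cluster that passed without the top cells (3.21 ± 0.71, adjusted p = 0.0072). It had 1 and 8 UMIs with isotype and 36 and 81 with aPD1. With all cells and an adjustment over all clusters together, it just missed the threshold (adjusted p = 0.0503). In cluster 17, the dividing macrophages led by histone genes, Cxcl2, a neutrophil chemokine, was at 457 and 1070 CPM with isotype and 196 and 90.0 CPM with aPD1 in pools 6 and 8. It passed with and without the top cells (adjusted p = 5.0e-10 and 7.3e-14), although 101 of its 200 UMIs in the isotype tumor of pool 8 were in 1 cell and the aPD1 tumor of that pool had 10 cells in the cluster. Pool 7, which had too few isotype cells for the test, went the other way, with 0 Cxcl2 UMIs in 7 isotype cells and 692 in 37 aPD1 cells.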

How the data were processed

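The authors aligned 5′ single-cell libraries with Cell Ranger to GRCm38/mm10 and filtered and clustered the cells with Seurat 5.0.1, per the labels and the study's methods. The deposited values were raw UMI counts per gene and cell, beside tables of host, treatment, library and cluster for each cell. The authors removed cells with many mitochondrial or ribosomal reads and regressed out cell cycle phase, depth and both shares before clustering, so cluster sizes are conditional on that. Hashtags assigned cells to tumors. No doublet caller was run here, and the treatment of doublets is not given in the sources used here.

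Counts were summed per tumor and class or cluster and tested with edgeR 4.0.16 (R 4.3.3), quasi-likelihood with pool as a block, TMM factors, edgeR's low-count filter and Benjamini-Hochberg adjustment at 0.05. Pools paired the tumors by a shared library, and deviations from the group means correlated within pools at 0.446 to 0.535 in macrophages and 0.308 to 0.759 in T/NK cells. A cluster was named where at least 3 markers, and at least 50% of a list, reached 100 CPM. Clusters entered with at least 10 cells in both tumors of at least 2 pairs. Shares used exact sign-flip and permutation tests (Python 3.11.15, scipy 1.17.1), all two-sided, and Wilson intervals at 95%, which cover counting error only. DESeq2 1.42.0 was an alternative.

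Named genes had a mean of at least 10 CPM and 1 sign in all 3 pools, up to 10 per direction by adjusted and then unadjusted p. Ribosomal protein genes and genes with provisional names were counted but not named (1 on the lower side in each class). Mt3 and Hist2h2bb in T/NK cells were named as called genes outside this rule. Members and gene lists were chosen with earlier results of these data known. Gene positions are those of a GRCm38 annotation. Scripts were tested on simulated data. In the fits with pool as a block, the p-values measure the spread of differences within pools, with spread shared over genes or clusters. Each tumor was 1 animal.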

Additional observations from a re-analysis of the deposited data

Results flagged for a closer look

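The share of cluster 12 differed between B6 tumors and those of the other hosts in its change with aPD1 by an exact permutation test. This held before adjustment for the number of clusters and not after it. The cluster was counted as T/NK but holds T cell and macrophage markers side by side. It made up 1.24%, 1.16% and 0.867% of the cells in the isotype tumors of pools 6, 7 and 8 and 0.967%, 0.546% and 0.338% in the aPD1 tumors, lower in 3 of 3 pools. In the other 7 hosts it was higher with aPD1 in 11 of 21 pairs and lower in 10, with changes from −0.608 to 1.196 percentage points. The mean change was −0.472 points in B6 and 0.0801 points in the others, a difference of −0.5516 points (exact permutation over 2024 arrangements, p = 0.0296). The permutation treated pairs as exchangeable, although they are grouped by host, so this p does not measure the spread between hosts. After adjustment over the 27 clusters p was 0.800, and as a share of T/NK cells alone the exact permutation p was 0.0524. In edgeR's quasi-likelihood fit on cell numbers the same difference was −1.002 ± 0.557 on the log2 scale and did not pass (adjusted p = 0.976, 0.0856 before adjustment). The cluster held 100 B6 cells. The part of doublets in this cluster was not tested.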

How the results depend on the processing

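None of the genes named by the rule in macrophage and T/NK sums changed direction under the alternatives tried, but values short of the threshold did. Among these, in cell numbers, cluster 8 went from −0.22 to 0.67 and cluster 13 from −0.58 to 0.33 on the log2 scale without pool 8, cluster 1 from 0.04 to −1.07 without pool 8 and cluster 11 from −0.15 to 0.49 without pool 7. Without pool 7, list medians changed sign, among others, for MHC class II in macrophages (0.0565 to −0.0016) and, in T/NK cells, for complement (−0.34 to 0.35) and interferon gamma induced genes (0.0041 to −0.0118). For macrophages, where no gene was called, dropping the low-count filter gave 50, a spread shared by all tumors gave 1 (Il12b), and leaving out a pool gave 0 to 6, the 6 without pool 8 (Fcrls, Isg20, Ifitm6, Osm, Nos2 and Slfn4). For T/NK cells, 4 called genes became 0 without the replicate block, with DESeq2, with library size scaling and with a spread shared by all tumors, 36 without the filter, 1 without cluster 12, and 0 to 16 when a pool was left out, the 16 without pool 7. For all cells, 0 became 3 with DESeq2, 178 without the filter and 0 to 5 when a pool was left out, the 5 without pool 8. Against the other hosts, the T/NK count of 0 became 0 to 1 (Pde7b, without pool 7). Within clusters, the 35 calls became 3 without the replicate block and 75 with at least 25 cells per tumor. They became 23 to 192 when a pool was left out, 192 without pool 7. With library size scaling, calls rose in some clusters, as in cluster 7 from 0 to 8, and fell in others, as in cluster 9 from 3 to 2. Clusters 8, 9 and 17 held 29 of the 35 calls. They could not be tested with at least 25 cells per tumor or without pool 6 or pool 8, so those counts cover fewer clusters. An adjustment over all clusters together left 15, and leaving out the gene's UMIs in the top cell of each tumor left 7. These last 2 alternatives and that without cluster 12 were chosen after seeing the data. The cause of these differences was not tested. The replicate block changed no other call.

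The other 74 alternative values of the main results kept their side of the threshold, moved by less than the spread or, for counts of called genes, stayed within a set ratio of the main count. Of the alternative values outside the main results, 667 did so, 27 passed the threshold under an alternative only and 26 lost it. With 3 pairs, no share could reach a p below 0.25 by sign flips. The isotype tumor of pool 7, with 345 cells and 35 T/NK cells, limits what pool 7 can show.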
